A study of Mus musculus with 12 samples.

Results

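The transcripts described here are 9 markers of lymphocytes, taken as every row of the count and FPKM tables whose symbol is Cd3d, Cd3e, Cd3g, Cd8a, Ms4a4b, Nkg7, Cd79a, Cd79b or Ms4a1, 9 of 25319 genes in the count table. They were followed in left ventricles from 12 male mice of strain C57BL/6, with 4 groups of 3. Transverse aortic constriction (TAC) clips the aortic arch and makes the left ventricle pump against a raised pressure, and the sham operation stops short of the clip. Each operation was done with or without the drug, which gave the groups named sham control, TAC control, sham dantrolene and TAC dantrolene. Surgery was at 8 weeks of age and tissue was taken at 12 weeks, and a daily dantrolene dose of 30 mg per kg was given over 4 weeks to the dantrolene groups only. Dantrolene is a muscle relaxant that lowers calcium release through ryanodine receptors. Per the labels' protocols, the thymus was stripped to reach the arch, but whether it was taken out, and whether this was done in the sham mice too, is not stated. The arrested heart was rinsed in buffer before RNA was taken from the tissue, so blood cells can be among the cells sampled.

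T lymphocytes recognise antigen through a T cell receptor that signals through the CD3 chains, B lymphocytes through a membrane antibody that signals through the CD79 chains. Killer T cells and natural killer (NK) cells carry granules whose contents lyse target cells. A healthy heart holds few lymphocytes beside its resident macrophages, and T cells are known to enter the pressure-overloaded ventricle.

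The 9 genes had few reads. Together they took 66 to 269 reads per library, out of totals of 25766378 to 38363106. Summed over the 12 libraries, Cd79b had 548 reads, Cd79a 393, Nkg7 322, Cd3d 132, Cd3g 99, Cd8a 99, Cd3e 98, Ms4a4b 36 and Ms4a1 26. Of the 9, 7 passed the filter on low counts and were tested. Ms4a4b, with 0 reads in 4 libraries, and Ms4a1, with 0 reads in 5, did not pass and are described only by their values. Levels below are counts scaled to a common library size (CPM, counts per 1e6 reads) after scaling of the library sizes, and FPKM (fragments divided by gene length and library size) where genes are compared with each other, since FPKM divides by gene length.

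Per length, the order of the mean FPKM over the 12 libraries was Cd79b (0.867), Nkg7 (0.849), Cd79a (0.612), Cd3d (0.231), Cd3g (0.225), Cd3e (0.158), Cd8a (0.0733), Ms4a4b (0.0658) and Ms4a1 (0.0192). The ranges over libraries of every 2 neighbours in this order overlapped. Cd79b ran from 0.38 to 1.42 FPKM and Nkg7 from 0.16 to 1.49, while Cd3d ran from 0.05 to 0.73 and Cd3e from 0.02 to 0.29. For scale, the 10 pan-leukocyte genes averaged from 0.1275 FPKM for Ptprc, the CD45 of all leukocytes, to 24.8 FPKM for Arhgdib, the macrophage complement gene C1qa 152.7 FPKM and the cardiac myosin gene Myh6 1421 FPKM. Other defining genes of the same cells were read unevenly. Cd4 had at least 10 reads and the antibody heavy chain gene Ighm at least 230 in every library, while the NK receptor genes Ncr1 and Klrb1c had 0 reads in 3 and 2 libraries. The B cell factor Pax5 had 0 reads in 6 libraries, the T cell cytokine receptor Il7r in 8, the γδ T cell receptor constant region Trdc in 6 and the NK and killer T cell factor Eomes in 10. Among genes of immature T cells in the thymus, the recombinase genes Rag1 and Rag2 had 12 and 2 reads in all, Ptcra 20 and Ccr9 5, and only Cd1d1 and Arpp21, which are not confined to thymocytes, passed the filter.

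In the genome (GRCm38), the CD3 genes form a cluster of 40056 bp on chromosome 9. Cd3g (ENSMUSG00000002033.11, 44969572 to 44980431, minus strand) and Cd3d (ENSMUSG00000032094.7, 44981786 to 44987339, plus strand) are read away from each other from starts 1355 bp apart, and Cd3e (ENSMUSG00000032093.6, 44998740 to 45009627, minus strand) follows. Cd8a (ENSMUSG00000053977.11) lies on chromosome 6 (71373427 to 71379173, plus strand) and Cd79b (ENSMUSG00000040592.9) on chromosome 11 (106311341 to 106314762, minus strand). On chromosome 7 lie Nkg7 (ENSMUSG00000004612.8, 43437073 to 43438249, plus strand) and Cd79a (ENSMUSG00000003379.7, 24897381 to 24902197, plus strand). Ms4a1 (ENSMUSG00000024673.9, 11249675 to 11266241, minus strand) and Ms4a4b (ENSMUSG00000056290.13, 11443553 to 11467055, plus strand) lie 177312 bp apart on chromosome 19. Cd3e shares 135 exonic bases with the antisense gene Gm48719, and Ms4a1 lies inside the antisense gene 4930526L06Rik with no shared exon. Neither antisense gene has a row in the count table, and whether the counting used strand is not given.

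The promoters of Cd3g and Cd3d are shown because these neighbours, read from starts close together, differed in which libraries were high. Those of Nkg7 and Cd79a are shown because they were the T and NK gene and the B gene with the smallest p between TAC dantrolene and TAC control. Each is the 250 bases before the start of the gene in RefSeq (GRCm38.p6), 5′ to 3′ on the gene's own strand. For Nkg7 and Cd79a the RefSeq start lies downstream of the start given above, so their stretches run into the gene as placed there. Capitals mark GGAA, the core bound by ETS factors, and TGTGGT, the core bound by RUNX factors, each searched on both strands.
Cd3g (chr9:44980432-44980681, minus strand): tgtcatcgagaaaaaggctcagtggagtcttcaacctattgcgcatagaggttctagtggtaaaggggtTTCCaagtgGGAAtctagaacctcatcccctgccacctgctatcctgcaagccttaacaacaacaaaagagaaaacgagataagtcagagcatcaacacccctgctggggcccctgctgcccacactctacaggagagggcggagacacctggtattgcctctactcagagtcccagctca
Cd3d (chr9:44981536-44981785, plus strand): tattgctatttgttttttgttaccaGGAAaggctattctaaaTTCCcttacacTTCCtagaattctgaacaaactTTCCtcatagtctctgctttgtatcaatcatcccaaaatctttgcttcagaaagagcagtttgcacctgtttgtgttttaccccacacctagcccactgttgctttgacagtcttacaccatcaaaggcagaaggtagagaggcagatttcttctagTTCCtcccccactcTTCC
Nkg7 (chr7:43436888-43437137, plus strand): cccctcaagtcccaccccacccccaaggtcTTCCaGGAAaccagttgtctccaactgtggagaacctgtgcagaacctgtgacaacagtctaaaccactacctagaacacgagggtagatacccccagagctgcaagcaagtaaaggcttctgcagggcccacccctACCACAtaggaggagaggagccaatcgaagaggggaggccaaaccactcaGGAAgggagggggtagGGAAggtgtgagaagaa
Cd79a (chr7:24897247-24897496, plus strand): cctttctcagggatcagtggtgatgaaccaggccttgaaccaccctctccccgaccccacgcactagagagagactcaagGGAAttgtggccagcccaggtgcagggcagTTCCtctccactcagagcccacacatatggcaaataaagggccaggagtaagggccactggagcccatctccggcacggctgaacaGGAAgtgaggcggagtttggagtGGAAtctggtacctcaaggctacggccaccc
Cd3d held 6 matches to GGAA, Cd3g 2, Nkg7 4 and Cd79a 4, and 93.45% of 32851 promoters of the same length hold at least 1. The RUNX core was found at -83 in Nkg7, on the reverse strand as ACCACA, and in 14.05% of all promoters. These matches describe the letters and were not measured as binding.

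Before the comparisons, 4 libraries have to be named. The first principal component of log2 CPM over all genes tested held 41.7% of the variance and set TAC control 1, TAC dantrolene 1, sham control 3 and sham dantrolene 3 apart from the other 8, 1 library in each group. In these 4 libraries short genes were relatively higher, with a median log2 difference from the others of 0.54 in genes with the shortest exons (57 to 2475 bp, 1 of 4 classes of equal size) and -0.44 in those with the longest. Mitochondrial transcripts took 1.71% of the reads in TAC dantrolene 2 and 7.10% to 22.4% in the others. For each comparison below, member values are therefore also given without these 4 libraries.

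**Figure D1:**
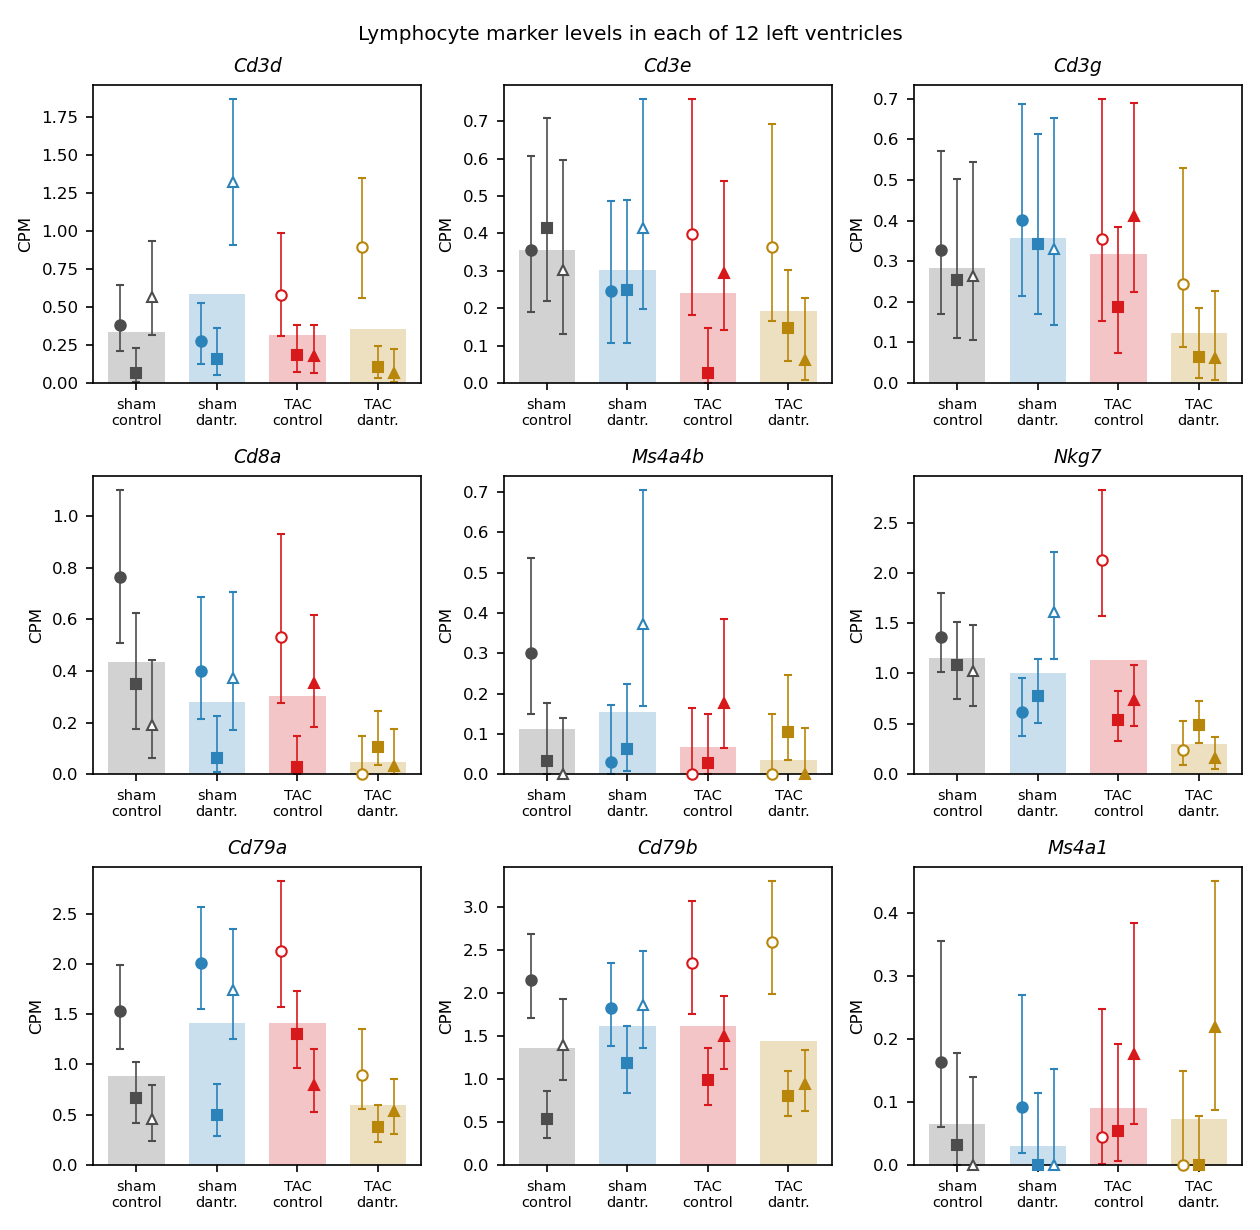
Level of each of the 9 lymphocyte markers in each library, in CPM on a linear axis that differs between panels, by group. Symbols are mice (circle 1, square 2, triangle 3), open where the library is among the 4 set apart on the first principal component, bars are group means, and error lines are 95% Poisson intervals of the read count. Cd3d is highest in the open symbol of every group, and the TAC dantrolene symbols of Nkg7 lie at 0.157 to 0.484 CPM.

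The CD3 chains carry the signal of the T cell receptor into the cell. Cd3d stood at 0.382, 0.0636 and 0.567 CPM in sham control 1 to 3, at 0.278, 0.156 and 1.32 in sham dantrolene, at 0.577, 0.186 and 0.176 in TAC control, and at 0.891, 0.105 and 0.0626 in TAC dantrolene. Its 4 high libraries were the 4 set apart above, each the highest of its group, and all 4 groups overlapped. That pattern is common, since 17.2% of all genes tested were highest in the apart library in all 4 groups, and 11.6% had all 4 apart libraries above all 8 others. Cd3d has 1815 bp of exons, which puts it in the shortest of the 4 classes (up to 2475 bp). Nkg7 (914 bp), Cd79b (1431 bp) and Cd79a (1457 bp) are in that class too. The spread of Cd3d between mice of a group was 13.4 times the variance that counting alone would give.

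Cd3g, whose gene starts beside that of Cd3d, was highest in the apart library in 1 group, TAC dantrolene. Cd3g stood at 0.327, 0.255 and 0.265 CPM in sham control 1 to 3, at 0.402, 0.342 and 0.331 in sham dantrolene, at 0.355, 0.186 and 0.411 in TAC control, and at 0.243, 0.0631 and 0.0626 in TAC dantrolene. It was the steadiest member, with a variance between mice of a group 1.19 times that of counting, and its lowest 2 values were those of TAC dantrolene 2 and 3, from 3 and 2 reads. Cd3e stood at 0.355, 0.414 and 0.302 CPM in sham control, at 0.247, 0.249 and 0.413 in sham dantrolene, at 0.400, 0.0266 and 0.294 in TAC control, and at 0.364, 0.147 and 0.0626 in TAC dantrolene. Its low libraries were TAC control 2, with 1 read, and TAC dantrolene 3, with 2 reads. It was highest in the apart library in 3 groups, as were 14.8% of all genes tested, and all 4 groups overlapped.

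Cd8a encodes the coreceptor α chain of killer T cells. It stood at 0.764, 0.350 and 0.189 CPM in sham control 1 to 3, at 0.402, 0.0622 and 0.372 in sham dantrolene, at 0.533, 0.0266 and 0.353 in TAC control, and at 0, 0.105 and 0.0313 in TAC dantrolene. The 3 TAC dantrolene libraries held 0, 5 and 1 reads, and TAC control 2 with 1 read lay among them, so the groups overlapped. A count of 0 in TAC dantrolene 1 allows up to 0.121 CPM (3 reads). Such limits and the Poisson intervals cover counting error only.

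Nkg7, a protein of the cytotoxic granule in NK cells and killer T cells, was the best measured of the T and NK genes. It stood at 1.36, 1.08 and 1.02 CPM in sham control 1 to 3 (50, 34 and 27 reads), at 0.618, 0.778 and 1.61 in sham dantrolene (20, 25 and 39 reads), at 2.13, 0.533 and 0.735 in TAC control (48, 20 and 25 reads), and at 0.243, 0.484 and 0.157 in TAC dantrolene (6, 23 and 5 reads). All 3 TAC dantrolene values lay below all 9 others, which held for 18 of the 14965 genes tested (0.12%), Nkg7 being the only member among them. The separation depends on the scaling of the libraries. In the authors' FPKM values TAC dantrolene 2 stood at 0.59 and TAC control 2 at 0.52, so the TAC groups overlapped there, and the other two TAC dantrolene libraries stood at 0.16 and 0.17.

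Ms4a4b, a membrane protein of T and NK cells, had 11 reads in sham control 1, 9 in sham dantrolene 3, 6 in TAC control 3 and 5 in TAC dantrolene 2, and at most 2 in each other library. Each group thus had 1 library that held most of its reads, and the group means were 0.111 ± 0.165 CPM in sham control, 0.0677 ± 0.0951 in TAC control, 0.155 ± 0.189 in sham dantrolene and 0.0351 ± 0.0607 in TAC dantrolene (SD, n = 3).

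Cd79a and Cd79b pair as the signalling arm of the B cell receptor. Cd79a stood at 1.53, 0.668 and 0.453 CPM in sham control 1 to 3, at 2.01, 0.498 and 1.74 in sham dantrolene, at 2.13, 1.30 and 0.794 in TAC control, and at 0.891, 0.379 and 0.532 in TAC dantrolene. Its TAC dantrolene values lay low in the range, with only TAC dantrolene 1 above the lowest TAC control library, and all 4 groups overlapped. Each TAC dantrolene value lay below that of the TAC control mouse with the same number. Cd79b stood at 2.16, 0.541 and 1.40 CPM in sham control, at 1.82, 1.18 and 1.86 in sham dantrolene, at 2.35, 0.985 and 1.50 in TAC control, and at 2.59, 0.799 and 0.940 in TAC dantrolene. The highest of the 12 Cd79b values was in TAC dantrolene 1 and the lowest in sham control 2, so its order over mice did not follow the groups.

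Ms4a1, which encodes CD20 of mature B cells, had 6, 1 and 0 reads in sham control 1 to 3, 3, 0 and 0 in sham dantrolene, 1, 2 and 6 in TAC control, and 0, 0 and 7 in TAC dantrolene. Its highest library was TAC dantrolene 3, where Cd3d, Cd3g and Nkg7 were at their lowest. The 5 counts of 0 allow up to 0.0631 to 0.124 CPM (3 reads). Ms4a1 has 6187 bp of exons and Cd79b 1431 bp, and the FPKM order above takes these lengths into account.

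**Figure D2:**
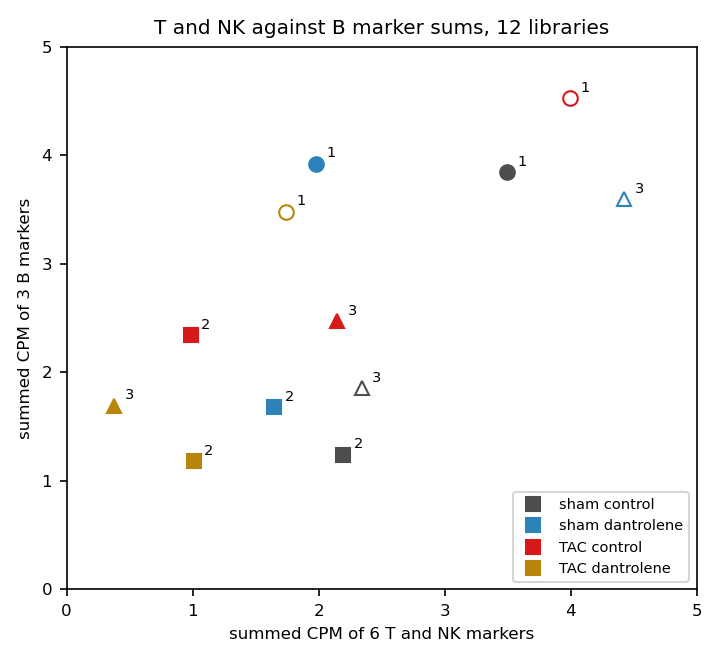
Summed CPM of the 6 T and NK markers (x axis) against the summed CPM of the 3 B markers (y axis), both linear, with 1 point per library, coloured by group and numbered by mouse, open for the 4 libraries set apart on the first principal component. T and NK sums run from 0.376 to 4.42 CPM and B sums from 1.18 to 4.53 CPM, and TAC dantrolene 3 has the lowest T and NK sum without the lowest B sum.

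Summed over the 6 T and NK genes, the level was 2.68 ± 0.710 CPM in sham control, 2.38 ± 1.52 in TAC control, 2.68 ± 1.52 in sham dantrolene and 1.04 ± 0.683 in TAC dantrolene (SD, n = 3). Summed over the 3 B genes it was 2.31 ± 1.36, 3.11 ± 1.23, 3.07 ± 1.21 and 2.12 ± 1.21 CPM in the same order. For the B sum, the mice of every group differed by more than the group means did. For the T and NK sum this held in TAC control and sham dantrolene, but not in sham control or TAC dantrolene. Among the TAC dantrolene mice, the T and NK sum was 1.74, 1.01 and 0.376 CPM and the B sum 3.48, 1.18 and 1.69 CPM.

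TAC control was set against sham control to ask whether lymphocyte transcripts were higher 4 weeks after constriction without the drug. Of the 7 members tested 3 had positive and 4 negative fold changes, and 0 passed the edgeR quasi-likelihood test (0% of all genes tested). Across all genes 57.2% were positive. Cd79a had the smallest p of the members, with a log2 fold change of 0.65 ± 0.62 (SE, 95% interval -0.70 to 2.01, edgeR adjusted p = 0.801). Nkg7 differed by -0.051 ± 0.60 (interval -1.34 to 1.24), Cd3e by -0.62 ± 0.81 and Cd8a by -0.58 ± 0.97. No member's groups failed to overlap, against 7.54% of all genes with TAC control higher throughout and 9.82% with it lower throughout. The median of the members was -0.051, against 0.099 for all genes. In bulk tissue, fewer cells of a type and less RNA per cell cannot be told apart, which applies to every difference given here.

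Among all genes tested, edgeR called 0 (1186, or 7.93%, had an unadjusted p under 0.05) and DESeq2 called 79 (0.528%), no member among them. Without the 4 libraries set apart, which left 2 mice a group, edgeR called 484 genes (3.21% of 15069), again no member among them. In that fit Nkg7 differed by -0.97 ± 0.56 and Cd8a by -1.60 ± 1.01 (edgeR adjusted p = 0.301 and 0.346), Cd79a by -0.093 and Cd79b by -0.16. Without TAC control 1 alone Nkg7 differed by -0.87, and that library held the highest Nkg7 level of all, at 2.13 CPM. Cd3d did not pass the filter without the 4 libraries.

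**Figure D3:**
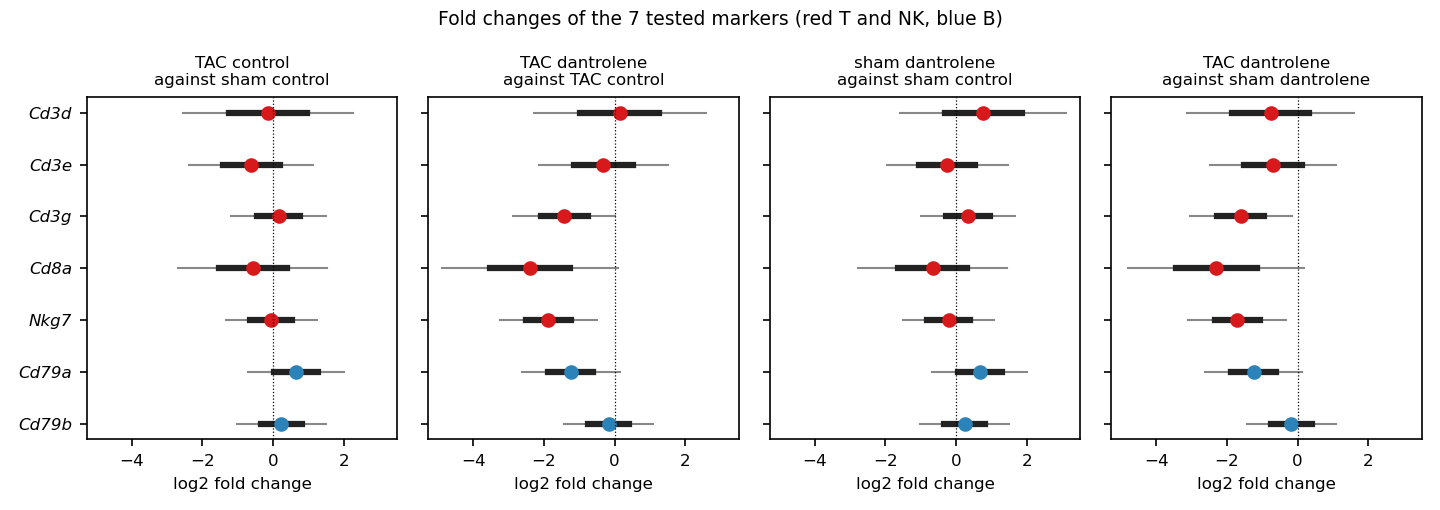
log2 fold change of the 7 tested markers in 4 comparisons of groups, from the edgeR fit of all 12 libraries. Points are estimates (red T and NK genes, blue B genes), thick lines 1 standard error and thin lines 95% intervals. The intervals of Nkg7 for TAC dantrolene against both comparison groups, -3.26 to -0.49 and -3.09 to -0.33, lie below 0, as does that of Cd3g against sham dantrolene.

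TAC dantrolene was set against TAC control to ask what happened with the drug in the overloaded ventricle. Of the 7 members tested 6 had negative fold changes, where 48.2% of all genes were negative, and 0 passed by edgeR (0% of all genes tested). Nkg7 was 3.66-fold lower in TAC dantrolene, at 0.294 ± 0.170 against 1.13 ± 0.871 CPM (SD, n = 3), a log2 fold change of -1.87 ± 0.64 (SE, unadjusted p = 0.0119, edgeR adjusted p = 1.00). It was the only member with an unadjusted p under 0.05, where 1.47% of all genes had one in the lower direction, and the only member whose groups did not overlap in CPM, where 2.08% of all genes did so in the lower direction. Cd8a differed by -2.39 ± 1.14 (interval -4.88 to 0.088), Cd3g by -1.42 ± 0.66 (interval -2.86 to 0.016) and Cd79a by -1.24 ± 0.64 (interval -2.62 to 0.15). The sizes depend on single libraries, Cd8a running from -1.75 without TAC control 1 to -3.80 without TAC dantrolene 2, and Cd3g reaching -2.27 without TAC dantrolene 1. Cd3e at -0.32 ± 0.84, Cd79b at -0.17 ± 0.58 and Cd3d at 0.15 ± 1.12 lay within 1 standard error of no difference. The median of the members was -1.24, against 0.016 for all genes.

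The size of the Nkg7 difference rests in large part on TAC control 1. Its log2 fold change was -1.05 without that library and -0.94 ± 0.59 (edgeR adjusted p = 0.380) without all 4 libraries set apart. Without those 4 the remaining members tested, Cd3g at -2.18 ± 0.78 (unadjusted p = 0.0171, edgeR adjusted p = 0.136), Cd8a at -1.31 ± 1.21, Cd79a at -1.21 ± 0.71, Cd3e at -0.51 ± 0.96 and Cd79b at -0.51 ± 0.62, were negative as well. That fit called 478 genes (3.17% of 15069), no member among them, and 9.58% of its genes had an unadjusted p under 0.05 in the lower direction. In the fit of all 12 libraries edgeR called 0 (486, or 3.25%, had an unadjusted p under 0.05) and DESeq2 called 12 (0.0802%), no member among them. DESeq2 gave Nkg7 an unadjusted p of 0.00433 and Cd8a one of 0.0317. Same-numbered mice were also taken as pairs, which the labels do not state. Cd3g, Nkg7 and Cd79a were lower in TAC dantrolene in all 3 pairs, 3 of the 7 members tested, where 13% of all genes were. With the replicate block within each surgery arm, Cd79a differed by -1.21 ± 0.50 (unadjusted p = 0.0365, edgeR adjusted p = 0.394), where 5.42% of all genes had an unadjusted p under 0.05 in the lower direction.

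Other leukocyte markers also differed between these libraries. The summed level of the pan-leukocyte list was 294, 115 and 97.2 CPM in TAC dantrolene 1 to 3 and 282, 174 and 210 in TAC control 1 to 3, and that of monocyte and macrophage genes 1943, 651 and 510 against 1701, 1113 and 1254 CPM. In TAC dantrolene 1, the pan-leukocyte and macrophage sums were above those of every TAC control library. The members were mixed in that library. Cd3d (0.891 CPM) and Cd79b (2.59 CPM) were also above every TAC control library. No other member was, with Nkg7 at 0.243 CPM and Cd8a at 0. In TAC dantrolene 3 the T and NK, pan-leukocyte, macrophage, neutrophil and platelet sums were all the lowest of the 12 libraries. So were sums outside the leukocytes, those of endothelium (940 CPM) and of atrial cardiomyocyte genes (113 CPM). The fibroblast and ventricular cardiomyocyte sums were not the lowest there. The part of these lists in the member differences was not tested.

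**Figure D4:**
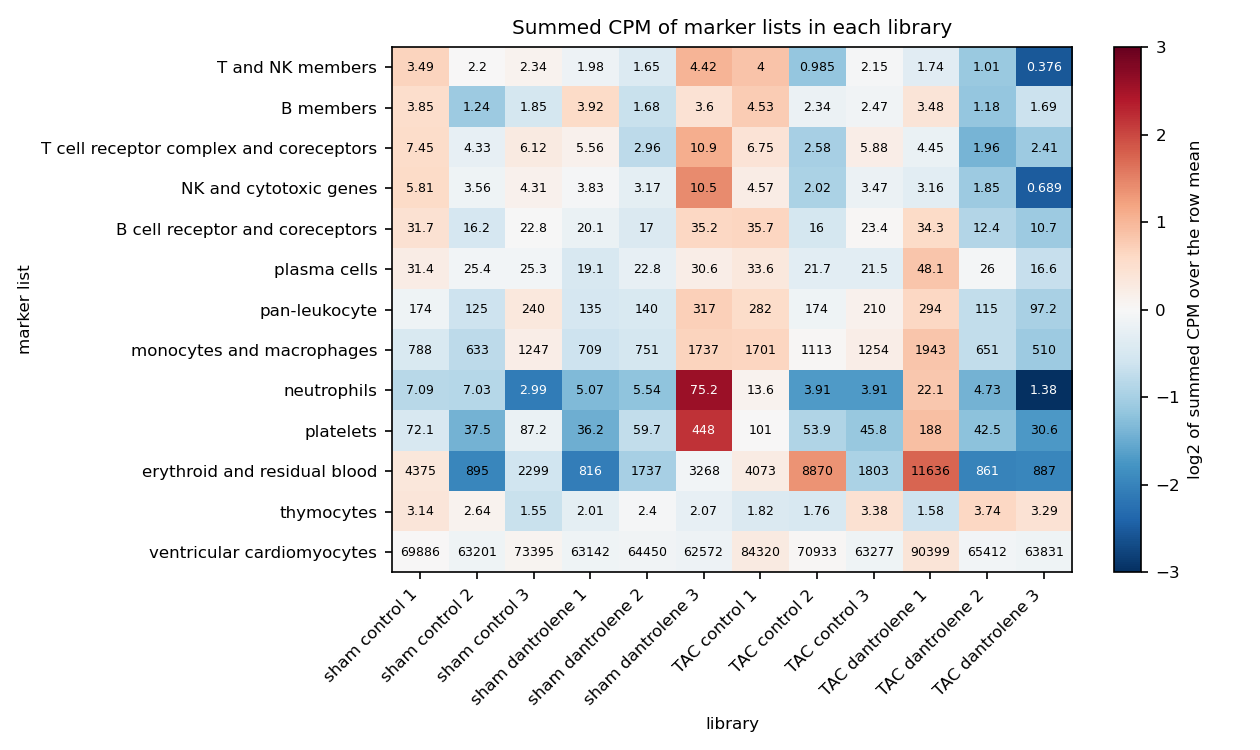
Summed CPM of 13 marker lists (rows) in each library (columns). The number is the sum in CPM and the colour its log2 ratio to the mean of the row. TAC dantrolene 3 is lowest of the 12 libraries for the T and NK members (0.376 CPM) and the pan-leukocyte list (97.2 CPM), and sham dantrolene 3 is highest for neutrophils (75.2 CPM) and platelets (448 CPM).

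TAC dantrolene was also compared with sham dantrolene, a comparison that shares the TAC dantrolene libraries with the one above. All 7 members had negative fold changes, where 40.1% of all genes were negative, and 0 passed by edgeR (0% of all genes). Nkg7 differed by -1.71 ± 0.64 (unadjusted p = 0.0193) and Cd3g by -1.61 ± 0.66 (unadjusted p = 0.0310), both with an edgeR adjusted p of 1.00, and 0.648% of all genes had an unadjusted p under 0.05 in the lower direction. These 2 genes were also the members whose groups did not overlap, where 1.96% of all genes did so in the lower direction, and in FPKM Cd3g (at most 0.14 against at least 0.24) and Nkg7 (at most 0.59 against at least 0.66) kept that separation. Without the 4 libraries set apart Nkg7 differed by -1.12 ± 0.59 and Cd3g by -2.54 ± 0.77 (unadjusted p = 0.00702, edgeR adjusted p = 0.438), Cd79a by -1.50 ± 0.71, Cd8a by -1.66 ± 1.19, Cd3e by -1.20 ± 0.92 and Cd79b by -0.82 ± 0.62. That fit called 0 genes (0%), and 4.54% of its genes had an unadjusted p under 0.05 in the lower direction. For all genes, edgeR called 0 (256, or 1.71%, had an unadjusted p under 0.05) and DESeq2 called 4 (0.0267%), no member among them.

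In sham mice the drug was compared without overload. Of the 7 members 4 were positive and 3 negative, where 52.5% of all genes were positive, and 0 passed by edgeR (0% of all genes), with unadjusted p from 0.308 for Cd79a (0.66 ± 0.62) to 0.759 for Cd3e (-0.25 ± 0.79). Cd3g was higher in every sham dantrolene library in CPM, by 0.34 ± 0.61 on the log2 scale, where 2.99% of all genes were higher throughout, and in FPKM its groups overlapped (0.24 to 0.37 against 0.22 to 0.30). Cd3d at 0.77 ± 1.08 was set by sham dantrolene 3, since it was -0.62 without it. That library also had the highest neutrophil sum (75.2 CPM, the next being 22.1) and platelet sum (448 CPM, the next being 188). It was highest too for the pan-leukocyte list (317 CPM) and for NK and cytotoxic genes (10.5 CPM). The same held for the T cell receptor complex and coreceptors (10.9 CPM), a list that includes Cd3d. Its B member and macrophage sums were not the highest. The part of these lists in its Cd3d was not tested. Without the 4 libraries set apart, Nkg7 differed by -0.79 ± 0.56, Cd8a by -1.25 ± 0.99, Cd3e by -0.60 ± 0.83, Cd3g by 0.36 ± 0.65, Cd79a by 0.19 ± 0.67 and Cd79b by 0.16 ± 0.61, and edgeR called 0 genes (0%; 261 of 15069 had an unadjusted p under 0.05). For all genes, edgeR called 0 (107, or 0.715%, had an unadjusted p under 0.05) and DESeq2 called 0 (0%).

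The interaction asks whether the drug difference differed between TAC and sham mice. All 7 members had negative interactions, where 50.5% of all genes did, and 0 passed by edgeR (0% of all genes). The log2 interactions were -1.90 ± 0.89 for Cd79a (unadjusted p = 0.0536), -1.76 ± 0.90 for Cd3g (unadjusted p = 0.0732) and -1.66 ± 0.87 for Nkg7 (unadjusted p = 0.0793), each with an edgeR adjusted p of 1.00. Without the 4 libraries set apart they were -1.40, -2.54 and -0.14, so that of Nkg7 was near 0 there. Cd8a went from -1.73 to -0.061 in the same fit, which called 7 genes (0.0465%), no member among them. For all genes, edgeR called 0 (422, or 2.82%, had an unadjusted p under 0.05) and DESeq2 called 1 (0.00668%), which was no member.

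The lists of related genes below include the members that belong to them. For the T cell receptor complex and coreceptors 9 of 11 genes were tested. In TAC control against sham control 7 were negative (median -0.44), where 42.8% of all genes were. In TAC dantrolene against TAC control 7 were negative, where 48.2% of all genes were (median -0.90, 0 at an unadjusted p under 0.05), with Trbc2, a constant region of the receptor β chain, at -2.26 ± 1.07. Against sham dantrolene 9 of 9 were negative (median -0.87), where 40.1% of all genes were. Of these 3 had an unadjusted p under 0.05, against 0.648% of all genes in that direction, namely Trbc1 (-3.75 ± 1.34), Cd3g and Trbc2 (-2.39 ± 1.07). Of 14 NK and cytotoxic genes 6 were tested, and 5 were negative both in TAC control against sham control (median -0.46) and in TAC dantrolene against TAC control (median -0.71), comparisons that share the TAC control libraries. In the latter 2 had an unadjusted p under 0.05, against 1.47% of all genes in that direction, Nkg7 and the cytotoxic cell protease Ctsw at -3.68 ± 1.05 (unadjusted p = 0.00406, edgeR adjusted p = 1.00). The granule proteases Gzma and Gzmb were measured too. Gzma stood at -0.99 ± 0.79 in TAC dantrolene against TAC control. In TAC control against sham control the 2 differed, Gzma at 0.049 ± 0.76 and Gzmb at -3.19 ± 1.29 (unadjusted p = 0.0293, edgeR adjusted p = 0.582 for Gzmb). Some of these genes had few reads. Ctsw had a median of 7.5 reads per library, with 0 in 2 libraries, Gzmb 2, with 0 in 2, and Trbc1 3.5, with 0 in 3. In all of these lists 0 genes passed by edgeR.

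Of 7 T cell transcription factors 4 were tested, and all 4 had positive fold changes in TAC dantrolene against TAC control (median 0.34), where 51.8% of all genes were positive, with Bcl11b at 1.40 ± 0.83 and Tcf7 at 0.19 ± 0.80. In TAC control against sham control all 4 were negative (median -0.57). Of 16 T cell signalling and costimulation genes 10 were tested. In TAC control against sham control 4 of them were negative (median 0.21), where 42.8% of all genes were. In TAC dantrolene against TAC control 6 were negative (median -0.30), where 48.2% of all genes were. Against sham dantrolene 8 were negative (median -0.49), where 40.1% of all genes were. All 6 genes of naive cell homing and recirculation were negative in TAC control against sham control (median -0.49), and 2 had an unadjusted p under 0.05, against 3.8% of all genes in that direction. These were Klf2, a transcription factor that endothelium also expresses, at -1.53 ± 0.47 (unadjusted p = 0.00683), and Ccr7, the receptor that guides lymphocytes to lymph nodes, at -2.36 ± 1.02 (unadjusted p = 0.0380). In TAC dantrolene against sham dantrolene 3 of the 6 were negative, where 40.1% of all genes were. Each of these 3 had an unadjusted p under 0.05, against 0.648% of all genes in that direction. They were Ccr7 at -3.52 ± 1.06, the chemokine receptor Cxcr4 at -1.04 ± 0.32 and Klf2 at -1.03 ± 0.47. None of these passed by edgeR, and Ccr7 had a median of 7.5 reads per library, with 0 in 2 libraries.

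For the B cell receptor and coreceptors, 9 of 13 genes were tested. In TAC dantrolene against TAC control 7 were negative (median -0.30), where 48.2% of all genes were, and 0 had an unadjusted p under 0.05, Cd79a having the smallest p and Ighm standing at -0.43 ± 0.49. In TAC control against sham control 7 were positive (median 0.25), where 57.2% of all genes were, with Igkc, the antibody κ chain, at -0.67 ± 0.74. Plasma cell genes, of which 7 of 8 were tested, had medians of 0.028 and 0.34 in the overload and drug comparisons.

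Ms4a1 and Ms4a4b belong to the MS4A family, whose other tested members include Ms4a7, Ms4a6b, Ms4a6c and Ms4a6d, known from macrophages. Of 13 family genes measured 7 were tested, neither lymphocyte member among them. All 7 were positive in TAC control against sham control (median 1.47), where 57.2% of all genes were. Of these 4 had an unadjusted p under 0.05, against 4.13% of all genes in that direction, with Ms4a6c at 2.07 ± 0.47 (unadjusted p = 7.35e-04, edgeR adjusted p = 0.364), and all 7 were negative in TAC dantrolene against TAC control (median -0.92). These comparisons share the TAC control libraries. The family's lymphocyte members were thus not measured well enough to be set beside its other genes.

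The genes most like the members across the 12 libraries were found by the correlation of log2 CPM with the mean standardised level of the tested T and NK members (5 genes) and of the tested B members (2 genes). For T and NK these were Trbc2 (Pearson r = 0.944, Spearman rho = 0.937), Ccl5 (r = 0.911, rho = 0.937), a chemokine made by killer T cells and NK cells, Serpina3g (r = 0.895, rho = 0.930), Gm20499 (r = 0.871, rho = 0.853) and Tmem159 (r = 0.868, rho = 0.755). Without the 2 libraries farthest from the median of the profile, TAC dantrolene 3 and TAC control 2, r was 0.881 for Trbc2 and 0.970 for Ccl5. Ccl5 ran from 0.0940 to 6.13 CPM. For B they were the chemokine Ccl12 (r = 0.938, rho = 0.944), Serpinb1a (r = 0.890), Ormdl2 (r = 0.889), C030039L03Rik (r = 0.888) and Ftsj1 (r = 0.881), and r for Ccl12 was 0.910 without TAC control 1 and TAC dantrolene 2. No antibody gene was among the 5 nearest to the B members. The points are libraries that share the depth and length differences described above, and the genes were the nearest of 14965, so these values are descriptions only.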

How the data were processed

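Directional libraries of poly(A) RNA from the left ventricle were read as pairs, per the labels' protocols. Without versions, bcl2fastq, TopHat2, edgeR and GRCm38 are listed per the submitters' processing notes. The counter, and whether it used strand, is not given in the sources used here. Read counts were deposited for 25319 genes, not normalised, and a table of FPKM values, scaled by the authors to gene length and library size, for 25258 genes. Groups and mouse numbers come from the labels.

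The deposited counts entered edgeR 4.0.16 (R 4.3.3), where filterByExpr with a minimum count of 10 and a minimum total of 15 kept 14965 genes. All 12 libraries, scaled by TMM, entered 1 quasi-likelihood fit of 4 group means with 8 residual degrees of freedom. Tests were two-sided. Benjamini-Hochberg adjustment ran over the 14965 genes, and an adjusted p under 0.05 counted as passing. CPM values use the TMM-scaled library sizes. With so few reads per member, counting error is a large part of the spread for Cd3g and a small part for the CD79 genes. The test was also run on simulated counts. Conditions for passing were set there only at a spread smaller than that of the tested members. How often the test finds a difference at the members' own spread is therefore not shown.

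Alternatives were DESeq2 1.42.0, limma 3.58.1 on log2(FPKM + 0.1) and log2(FPKM + 1), other scaling and filters, fits of 2 groups, each mouse left out in turn, and a block for the mouse number. Same-numbered control and dantrolene mice deviated together from their group means over all genes, with correlations of 0.366 to 0.672 within sham and 0.300 to 0.613 within TAC, each over 0.1. Across surgery arms the correlations of same-numbered mice were mixed, from -0.377 to 0.444. Those between mice of number 2 were all positive there (0.270 to 0.444). The library set apart has the same number in both groups of an arm, 3 in sham and 1 in TAC, and these correlations include it. Unlike numbers could correlate as well, sham control 2 with sham dantrolene 1 at 0.375 against 0.366 with sham dantrolene 2. Across arms, sham dantrolene 3 and TAC control 1, both set apart, correlated at 0.507. Pairing by number within an arm is therefore an assumption, since the labels give only the number and these correlations do not establish it.

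The members and gene lists were chosen with earlier results of these data known. Genes named beside the members are up to 3 of a list by smallest p in a comparison and the 5 nearest patterns. Ptprc, C1qa, Myh6 and the other cell type markers given only by their level were picked after their values were seen. Positions and exonic lengths come from GENCODE vM21 (GRCm38) and promoters from RefSeq (GRCm38.p6), which held 7 of the 9 members.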

Additional observations from a re-analysis of the deposited data

How the results depend on the processing

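Over 545 values of the 7 tested members in the 5 comparisons and their alternatives, 0 crossed the threshold and 47 changed sign, and the causes were not tested. In TAC control against sham control the sign changed for Cd3d at 0.095 with a replicate block over all groups, for Cd3g at -0.091 and -0.018 by limma on log2 FPKM with 0.1 and 1 added, and, without the 4 libraries set apart (a fit chosen after seeing the data), for Cd3g at -7.2e-04, Cd79a at -0.093 and Cd79b at -0.16. In TAC dantrolene against TAC control it changed for Cd3d, at -0.11 by limma with 0.1 added, -0.084 with the block over all groups and -0.33 with the block within each arm. In the interaction it changed for Cd3e, at 0.16 and 0.039 by limma, 0.018 and 0.10 with the 2 blocks and 0.099 without the 4 libraries.

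With mice left out in turn, sign changes fell in these ranges. In TAC control against sham control Cd3d ran from -0.87 to 0.41, Cd3g from -0.094 to 0.43, Cd8a from -1.22 to 0.12, Nkg7 from -0.87 to 0.29 and Cd79b from -0.16 to 0.73. In TAC dantrolene against TAC control Cd3d ran from -1.79 to 0.87, Cd3e from -1.08 to 0.22 and Cd79b from -0.90 to 0.20. In sham dantrolene against sham control Cd3d ran from -0.62 to 1.34, Cd8a from -1.05 to 0.027, Nkg7 from -0.73 to 0.035 and Cd79b from -0.14 to 0.74. In TAC dantrolene against sham dantrolene Cd3d ran from -2.72 to 0.62 and Cd79b from -0.94 to 0.12, and in the interaction Cd3d from -2.55 to 0.77 and Cd3e from -0.83 to 0.47. Nkg7, Cd3g, Cd8a and Cd79a stayed negative in TAC dantrolene against TAC control in every fit run.

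Over all genes, DESeq2 called 79, 12, 4 and 1 genes for overload, the drug under TAC, TAC dantrolene against sham dantrolene and the interaction. Without a filter edgeR called 3 for overload and 1 for the drug under TAC, and in a fit of the 2 overload groups alone 1. Without the 4 libraries it called 484, 478 and 7 for overload, the drug under TAC and the interaction. With 1 mouse left out it called 0 to 15 for overload and 0 to 1 for the drug under TAC, both highest without TAC control 1. The replicate block within each arm called 0 genes in the drug comparisons and the interaction, with 1826 at an unadjusted p under 0.05 under TAC, and gave Nkg7 -1.72 (edgeR adjusted p = 0.383) and Cd79a -1.21 (edgeR adjusted p = 0.394), so it changed no call. Depth limits Ms4a1, Ms4a4b and the CD3 and CD8 genes most, since libraries with 3 reads or fewer leave their levels uncertain.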
